A study of Mus musculus with 6 samples.

Results

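The genes of phase II conjugation and glutathione metabolism were followed in NMuMG cells, an epithelial line from the mouse mammary gland. They were taken from the table of gene counts by symbol: the glutathione S-transferases (Gst and Mgst), UDP-glucuronosyltransferases (Ugt), sulfotransferases (Sult) and glutathione peroxidases (Gpx), and 10 genes of glutathione synthesis, glutathione recycling and the NRF2 response named one by one. Of the 18512 rows in the table, 64 had such a symbol, and the 46 with a mean raw count of at least 20 over the 6 libraries are described here. The lowest members were Ugt2b38 with a mean raw count of 21, Ugt1a1 with 23.3 and Gsta1 with 39.7, and the nearest genes left out were Gstt3 with 13.3 and Gstt1 and Ugt2b1 with 11 each. Nqo1, the NRF2 target that codes for NAD(P)H quinone dehydrogenase, was among the 18 left out, with raw counts of 6 and 10 under DMSO, 14 and 4 under TGF-β, and 2 and 24 under TGF-β+2APB.

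The 3 groups of 2 replicates each had the solvent DMSO, 5 ng/ml of TGF-β, or the same dose of TGF-β together with 50 uM 2APB. TGF-β starts an epithelial to mesenchymal transition in these cells, and 2APB modulates store-operated calcium entry, the influx that refills emptied calcium stores. The study asked how blocking this influx alters the TGF-β response. Cells with 2APB but no TGF-β were not among the 6 libraries, so the second comparison below shows what 2APB adds in cells that also had TGF-β. The cells are 1 established line, and with 2 replicates the p-values measure only the spread between these samples, which may be technical.

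Phase II enzymes attach a polar group to drugs, steroids, bilirubin and reactive lipids so that they can leave the cell. Glutathione S-transferases use the tripeptide glutathione, UDP-glucuronosyltransferases use UDP-glucuronic acid, and sulfotransferases use the activated sulfate PAPS. Glutathione is made by glutamate cysteine ligase, which has a catalytic subunit (Gclc) and a modifier subunit (Gclm), followed by glutathione synthetase (Gss), and glutathione reductase (Gsr) restores it after oxidation. Many of these genes can be switched on by the transcription factor NRF2 (gene Nfe2l2), which KEAP1 holds back and which binds antioxidant response elements. The conjugating enzymes are best known from liver, gut and kidney.

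RefSeq promoter windows on GRCm38.p6, from 250 bases before to 50 bases after a gene's start, were available for 41 of the 46 members in 54 windows. No window was available for Gclc, Gsr, Gsta4, Hmox1 and Ugt1a6b, so these genes were not searched. Of the 8 members whose windows hold the antioxidant response core, 3 were higher with TGF-β+2APB than with DMSO and 5 were lower. Over all 46 members 7 were higher and 35 lower, and over all tested genes 25.6% and 27.2%. Windows are shown for the 3 that were higher, Gclm, Srxn1 and Txnrd1, and for Gsta3, which had the largest fall of the 5. Other windows of Txnrd1 hold no such core and are not shown. Both strands were searched for TGACNNNGC, the core of the antioxidant response element, and for the AP-1 element TGACTCA, both motifs chosen after the counts had been seen. Capitals mark matches to the first of these, in either orientation, and each window reads 5′ to 3′ on the gene's strand.
Gclm, chr3:122245307-122245606, + strand: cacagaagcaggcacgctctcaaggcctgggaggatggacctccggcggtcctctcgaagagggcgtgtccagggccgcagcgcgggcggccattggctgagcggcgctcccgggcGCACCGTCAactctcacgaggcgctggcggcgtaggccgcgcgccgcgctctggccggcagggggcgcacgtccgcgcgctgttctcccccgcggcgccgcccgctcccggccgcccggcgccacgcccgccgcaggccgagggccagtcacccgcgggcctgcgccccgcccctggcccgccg
Srxn1, chr2:152105274-152105573, + strand: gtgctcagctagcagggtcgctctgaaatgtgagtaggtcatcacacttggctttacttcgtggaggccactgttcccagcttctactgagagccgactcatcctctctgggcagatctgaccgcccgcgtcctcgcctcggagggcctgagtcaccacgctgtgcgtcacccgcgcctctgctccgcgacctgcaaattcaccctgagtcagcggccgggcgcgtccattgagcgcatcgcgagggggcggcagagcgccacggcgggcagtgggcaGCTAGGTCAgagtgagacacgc
Txnrd1, chr10:82858956-82859255, + strand: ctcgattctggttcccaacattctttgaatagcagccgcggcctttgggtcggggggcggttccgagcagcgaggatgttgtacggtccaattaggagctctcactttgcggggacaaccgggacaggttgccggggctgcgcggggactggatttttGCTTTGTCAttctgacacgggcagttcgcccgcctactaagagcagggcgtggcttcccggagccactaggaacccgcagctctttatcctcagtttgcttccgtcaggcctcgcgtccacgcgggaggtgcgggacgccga
Gsta3, chr1:21240335-21240634, + strand: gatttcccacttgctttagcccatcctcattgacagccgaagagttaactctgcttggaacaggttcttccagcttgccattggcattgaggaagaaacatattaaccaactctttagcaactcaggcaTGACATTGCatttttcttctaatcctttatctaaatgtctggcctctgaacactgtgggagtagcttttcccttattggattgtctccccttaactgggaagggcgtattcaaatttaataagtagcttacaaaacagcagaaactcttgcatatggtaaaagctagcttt

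The antioxidant response core lay in windows of 8 member genes (Gclm, Gsta3, Gstm5, Gstm7, Mgst1, Nfe2l2, Srxn1 and Txnrd1). It was in 14.8% of the members' windows and 12.4% of the 32851 windows searched, which leave out a chromosome. Gsta3, Gstm5, Gstm7, Mgst1 and Nfe2l2 were lower with TGF-β+2APB than with DMSO. When 2APB was added to TGF-β, Gclm and Srxn1 rose, Gsta3 and Nfe2l2 fell, and the other 4 did not pass. AP-1 elements were in 11.1% of the members' windows and 5.2% of the windows searched, and no antioxidant response core overlapped one. A match describes the letters of the window and is not evidence of binding.

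Counts were scaled between libraries by edgeR's TMM method to a common library size, which gives the normalized counts below. Each gene was compared by edgeR's quasi-likelihood F-test in a model of all 6 libraries over 13353 genes, and a Benjamini-Hochberg FDR of 0.05 or less is called a rise or a fall. Log2 fold changes stand with their SE, the standard error. Each library held 71840570 to 79473182 counts, all of them even numbers for a reason not given in the sources used here. The members took 0.523% to 0.541% of the counts with DMSO and 0.23% to 0.267% in the other 4 libraries. Levels are compared between genes only as the per-kb level, which is normalized counts per kb of annotated exon in each 1e6 counts of the library, on gene models of GENCODE M21. Replicates differed by a log2 SD over genes of 0.334 under DMSO, 0.567 under TGF-β and 0.78 under TGF-β+2APB.

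TGF-β lowered most of these genes, and adding 2APB lowered a part of them further. With TGF-β against DMSO, 31 of the 46 members fell, 3 rose and 12 did not pass, where 19.7% of all tested genes fell and 21.8% rose. Adding 2APB to TGF-β lowered 15 members and raised 3, beside 10.9% and 6.58% of all tested genes. With TGF-β+2APB against DMSO, 35 members fell and 7 rose, beside 27.2% and 25.6% of all tested genes. The members' median log2 fold changes were -1.63, -0.58 and -2.69 in these 3 comparisons, against medians of -0.01, -0.0037 and -0.0033 over all tested genes. Counts of members include 12 that reach a mean raw count of 20 in some groups only, which had to differ to be included. Besides UGT and SULT genes named below, these are Gsta1 and Gpx8. Among the 34 that reach it in every group, 22 fell with TGF-β and 10 when 2APB was added. The 3 comparisons share libraries and are not independent of each other.

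The count of 18 members called between TGF-β+2APB and TGF-β changed with 1 library left out, which also left fewer libraries to estimate the spread. It was 9 without DMSO replicate 1, 9 without DMSO replicate 2, 9 without TGF-β+2APB replicate 1, 31 without TGF-β replicate 2, and 15 without TGF-β+2APB replicate 2, whose leukocyte marker sum is high as given below. Calls that held without each library in turn were those of 6 genes: Gclc, Gclm, Ugt2b5, Ugt2b35, Ugt2b36 and Sult1d1. Against DMSO, most calls with TGF-β and with TGF-β+2APB held in each of these fits that tested the gene. Ugt2b38 and Ugt1a1 fell under the minimum count with a DMSO library left out and were not tested there.

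**Figure D1:**
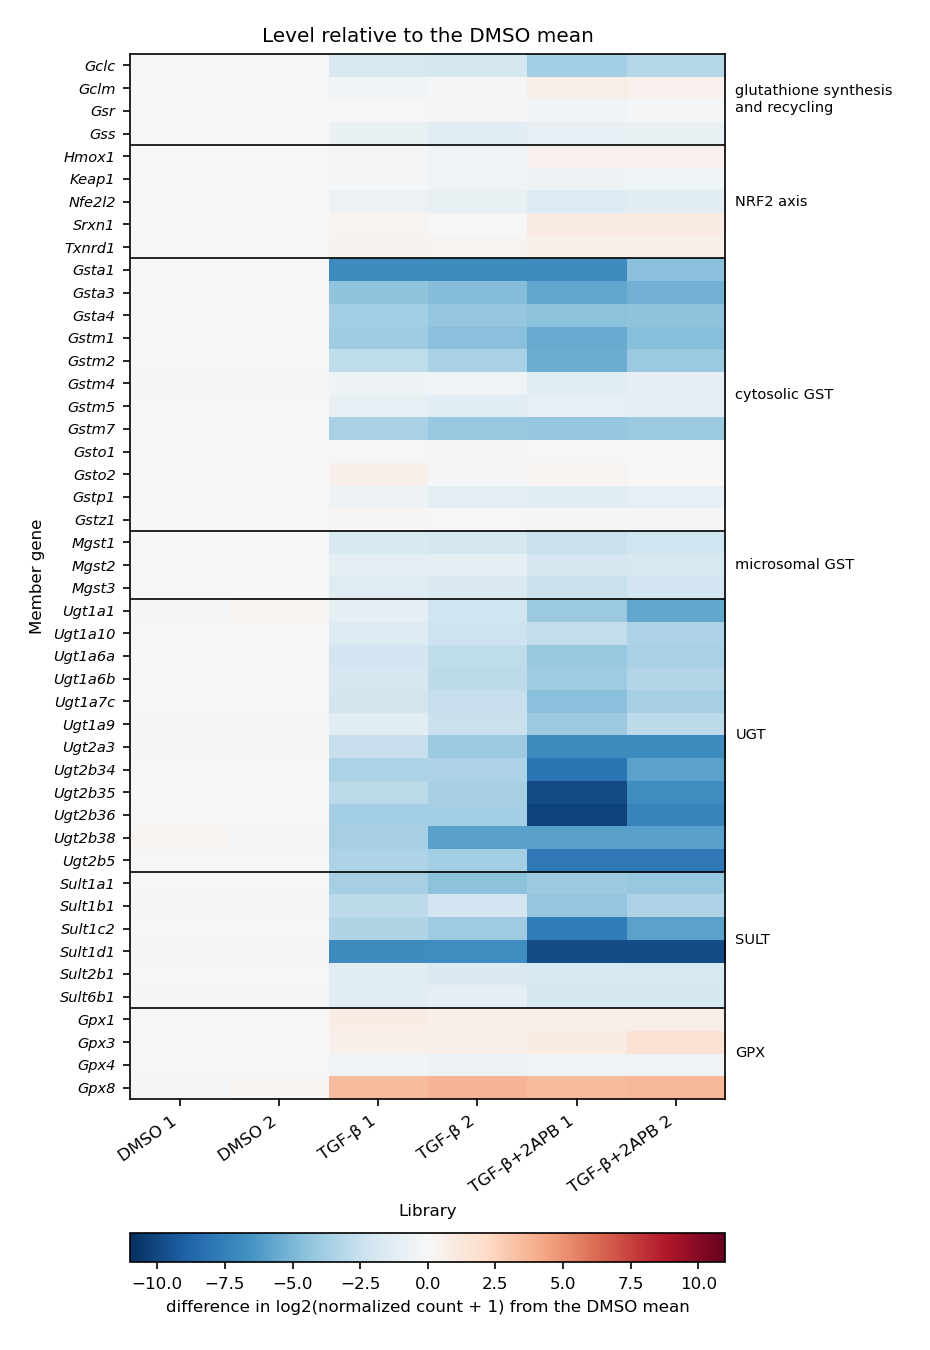
Heat map of the 46 members (rows, grouped by family) in the 6 libraries (columns), coloured by the difference in log2(normalized count + 1) from the mean of the DMSO libraries, blue for lower and red for higher. Most transferases are blue in the 4 libraries with TGF-β, the Ugt2 genes, Sult1c2 and Sult1d1 are darkest in both libraries with 2APB, and Gpx8 is the reddest row.

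Markers of 6 cell types were read in the same libraries. Among epithelial markers, Krt8, Krt18 and Cldn4 rose in all 3 comparisons. Krt19 fell in all 3, and Cdh1 and Epcam fell in both comparisons with DMSO. Cldn4 held 1.97 and 6.2 under DMSO, 713 and 743 under TGF-β, and 2087 and 1529 under TGF-β+2APB. Of 8 tested mesenchymal markers, 7 rose with TGF-β. Of 10 hepatocyte markers, 8 could be tested and 6 fell in both comparisons with DMSO, among them Alb with 31569.9 and 28821 under DMSO, 93.5 and 41.5 under TGF-β, and 39.6 and 19.7 under TGF-β+2APB. Apob held 198639 to 592557 normalized counts in every library, fell in no comparison and rose when 2APB was added (FDR = 0.0288). With it, the summed hepatocyte list was 449586 to 462562 with DMSO, 199942 to 330035 with TGF-β and 532147 to 592768 with TGF-β+2APB. Without it, the sum was 85147 to 94034 with DMSO, 745 to 1303 with TGF-β and 182 to 211 with TGF-β+2APB. The fall of the sum without Apob ran alongside that of the conjugation genes below, and its part in their result was not tested. The 5 leukocyte markers in the table summed to 335 normalized counts in TGF-β+2APB replicate 1, 2364 in replicate 2 and 247 to 629 in the other libraries. No endothelial gene and 1 adipocyte gene (Cidec) reached the minimum, and endothelial sums were 9.83 to 51.3. In bulk RNA, fewer cells that express a gene and less RNA per cell cannot be told apart.

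When 2APB was added to TGF-β, the ligase subunits of glutathione synthesis changed in opposite directions. Gclc (chr9:77754535-77794485), the catalytic subunit, held normalized counts of 51036 and 49818 under DMSO, 15176 and 13391 under TGF-β, and 3817 and 5878 under TGF-β+2APB. The 3 groups did not overlap and each step was a fall: the log2 fold change was -1.82 ± 0.21 (SE) with TGF-β (FDR = 0.0015) and -1.56 ± 0.21 when 2APB was added (FDR = 0.00874), which left Gclc 10.4-fold lower than with DMSO. Gclm (chr3:122245557-122270732), the modifier subunit, held 13672 and 13638 under DMSO, 11197 and 11918 under TGF-β, and 21309 and 19353 under TGF-β+2APB. Its difference of -0.24 ± 0.079 with TGF-β did not pass (FDR = 0.0555), while DESeq2, an alternative test, called it a fall (FDR = 0.0155). Gclm then rose by 0.81 ± 0.079 with 2APB (FDR = 0.00471) to above its DMSO level (0.57 ± 0.079, FDR = 0.00197). Per kb of exon, the ratio of Gclc to Gclm was 6.24 and 6.1 under DMSO, 2.26 and 1.88 under TGF-β, and 0.299 and 0.507 under TGF-β+2APB, so the subunit with the higher RNA level was Gclc in the first 4 libraries and Gclm in the last 2.

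Gss, the enzyme of the second step of synthesis, held 5619 and 5124 under DMSO, 3255 and 2463 under TGF-β, and 2815 and 2997 under TGF-β+2APB. It fell with TGF-β (-0.91 ± 0.14, FDR = 0.00464) and overlapped between the groups with and without 2APB (0.023 ± 0.14, FDR = 0.927). Gsr, which restores reduced glutathione, held 16937 and 16540.5 under DMSO, 17533 and 15030.5 under TGF-β, and 13966 and 14894 under TGF-β+2APB and passed the test in no comparison, with log2 fold changes of -0.04, -0.17 and -0.21. Of the 4 genes, Gclc thus moved most in each comparison.

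With TGF-β+2APB against DMSO, the NRF2 gene and Keap1 fell and the other 3 members of the NRF2 axis (Hmox1, Srxn1 and Txnrd1), which are known NRF2 targets, rose. Other genes known to be regulated by NRF2, such as Gclc above and Mgst1 below, fell in that comparison. Nfe2l2 (chr2:75675513-75704641) held 17554 and 18003 under DMSO, 11216 and 10112 under TGF-β, and 6696 and 7385 under TGF-β+2APB. It fell with TGF-β (-0.74 ± 0.089, FDR = 0.00183) and again with 2APB (-0.60 ± 0.089, FDR = 0.0118), with no overlap of groups at either step. Keap1, whose protein marks NRF2 for breakdown, held 5558 and 5320.0 under DMSO, 4909 and 4063 under TGF-β, and 3734 and 3899 under TGF-β+2APB and fell only with TGF-β+2APB against DMSO (-0.51 ± 0.11, FDR = 0.00936). That call was lost without any 1 of the DMSO or TGF-β+2APB libraries (FDR up to 0.0699).

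Hmox1, which codes for the heme-degrading heme oxygenase, held 4764 and 4349 under DMSO, 3978 and 3194 under TGF-β, and 6488 and 6264 under TGF-β+2APB. Both libraries with 2APB lay above the other 4, and the rise over TGF-β was 0.83 ± 0.12 (FDR = 0.0114). Srxn1, the sulfiredoxin that repairs over-oxidized peroxiredoxins, held 3548 and 3349 under DMSO, 4313 and 3579.7 under TGF-β, and 6479.9 and 6459.6 under TGF-β+2APB. It rose with 2APB over TGF-β by 0.71 ± 0.10 (FDR = 0.0116), and the difference of TGF-β from DMSO did not pass (FDR = 0.191). Txnrd1, the cytosolic thioredoxin reductase, held 14897 and 14348 under DMSO, 19239.6 and 17608 under TGF-β, and 21631 and 21456 under TGF-β+2APB. It rose with TGF-β (0.33 ± 0.073, FDR = 0.0154), and the further 0.23 ± 0.073 with 2APB did not pass (FDR = 0.0925).

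Several of these calls were lost with 1 library left out, which also left fewer libraries to estimate the spread. The second comparison then gave log2 fold changes of 0.681 to 0.999 for Hmox1, 0.585 to 0.856 for Srxn1 and -0.675 to -0.521 for Nfe2l2. Txnrd1 with TGF-β ran from 0.274 to 0.396, and Hmox1 with TGF-β+2APB against DMSO from 0.42 to 0.552. In the second comparison, the call of Hmox1 was lost without TGF-β+2APB replicate 1 (FDR = 0.0635), that of Srxn1 without either TGF-β+2APB library (FDR up to 0.0698), and that of Nfe2l2 without either DMSO library or TGF-β+2APB replicate 1 (FDR up to 0.0812). The call of Txnrd1 with TGF-β was lost without either DMSO library (FDR up to 0.142). Hmox1 against DMSO was lost without any 1 of the DMSO or TGF-β+2APB libraries (FDR up to 0.123).

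**Figure D2:**
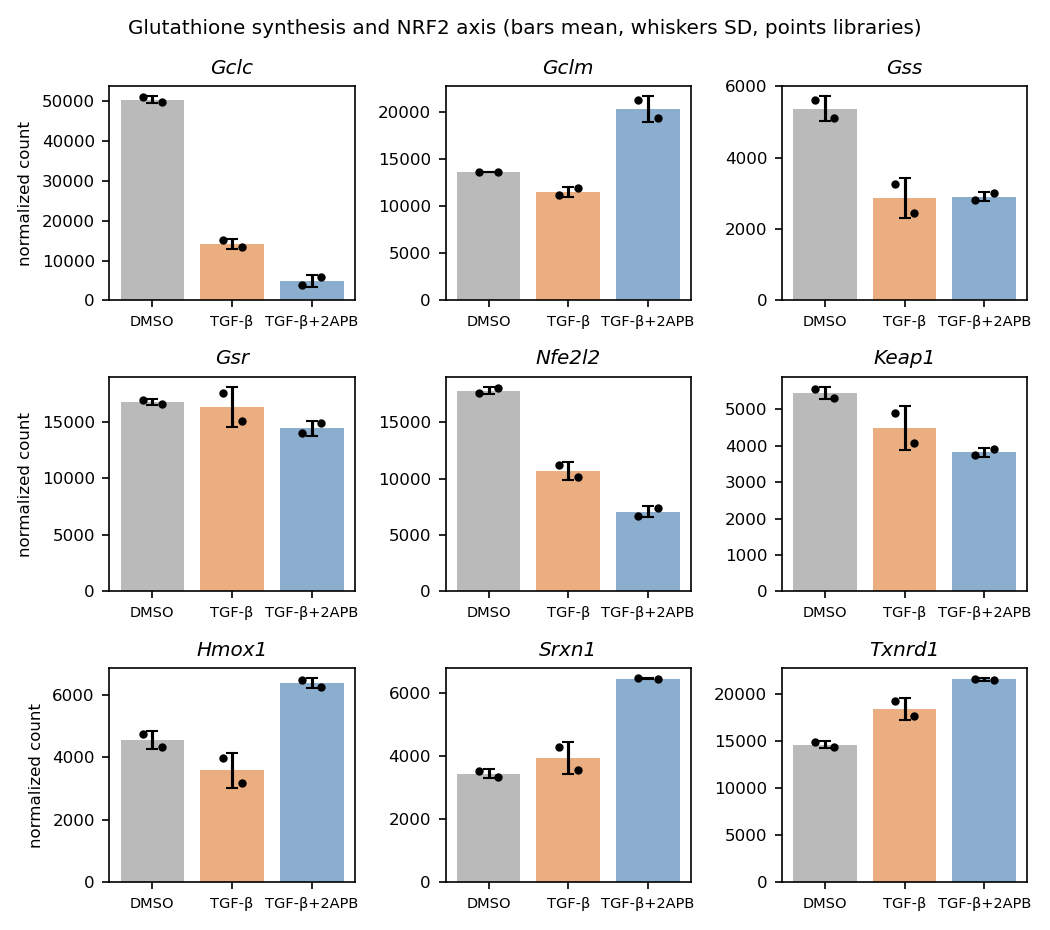
Normalized counts of the 4 genes of glutathione synthesis and recycling and the 5 genes of the NRF2 axis, each panel with its own axis from 0. Bars are means of 2 replicates, whiskers are SD and points are libraries; Gclc and Nfe2l2 step down across the groups, while Gclm, Hmox1 and Srxn1 are highest with TGF-β+2APB.

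Cytosolic glutathione S-transferases fell with TGF-β in the alpha, mu and pi classes, and the omega and zeta classes passed no test. Of 12 members, 8 fell with TGF-β, 1 fell when 2APB was added, 9 were lower with TGF-β+2APB than with DMSO, and none rose in edgeR's test, with 0 rises at an unadjusted p under 0.05 and 0 by DESeq2. The 1 fall with 2APB was 8.33% of these members, beside 10.9% of all tested genes. Gsta4 (chr9:78182774-78209349), which conjugates lipid aldehydes such as hydroxynonenal, held 71605 and 67133 under DMSO, 5228 and 3683 under TGF-β, and 2995 and 3289 under TGF-β+2APB. It fell 15.6-fold with TGF-β (-3.96 ± 0.19, FDR = 9.84e-05), and the lower values with 2APB did not pass against TGF-β (-0.50 ± 0.17, FDR = 0.0997). By per-kb level it was gene 28 of 12718 ranked genes with DMSO, 958 with TGF-β and 1521 with TGF-β+2APB.

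Gsta3 held 2500.1 and 2258 under DMSO, 107 and 85.1 under TGF-β, and 45.5 and 59.2 under TGF-β+2APB. It is the only cytosolic member that fell at both steps, by 24.7-fold with TGF-β (FDR = 6.43e-05) and 1.84-fold with 2APB (FDR = 0.0311), the latter lost without any 1 of the DMSO or TGF-β+2APB libraries (FDR up to 0.148). Gsta1 held 112 and 124 with DMSO and 0 in both TGF-β libraries. Against a floor of 3 counts per library it was at least 39.1-fold lower with TGF-β, and with 2APB it was at 0 and 3.95. Alpha class genes are close copies of each other, and reads of Gsta1 and Gsta2 in particular may be split between them.

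Mu class genes lie side by side on chr3:107895821-108044894, with no other tested gene between them. Gstm1 held 14179 and 13099 under DMSO, 880.5 and 549.9 under TGF-β, and 295 and 521 under TGF-β+2APB and fell 19.1-fold with TGF-β (-4.25 ± 0.35, FDR = 0.000491). Gstm2 held 2256 and 2037 under DMSO, 318 and 176 under TGF-β, and 47.5 and 124 under TGF-β+2APB and fell 8.68-fold (FDR = 0.0039). Gstm7 held 725 and 684 under DMSO, 58.4 and 37.4 under TGF-β, and 35.6 and 39.5 under TGF-β+2APB and fell 14.7-fold (FDR = 0.000263). Gstm5 held 2050.0 and 1872 under DMSO, 1025 and 867 under TGF-β, and 1028 and 1004 under TGF-β+2APB, a fall of 2.07-fold with TGF-β (FDR = 0.0012). Gstm4 held 220.1 and 176 under DMSO, 131 and 139 under TGF-β, and 83.2 and 98.6 under TGF-β+2APB and passed only with TGF-β+2APB against DMSO (-1.12 ± 0.23, FDR = 0.00969), a call lost without DMSO replicate 1 (FDR = 0.0799). No mu class gene passed edgeR's test between TGF-β+2APB and TGF-β, where 2 had an unadjusted p under 0.05 and DESeq2 called 1. Within 1 Mb of the cluster, 6 of 26 other tested genes fell with TGF-β and 6 rose, beside 19.7% and 21.8% of all tested genes. Mu class genes are paralogs, so reads may be shared among them.

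Gstp1, the pi class enzyme, held 8676 and 8189.7 under DMSO, 5768 and 4088 under TGF-β, and 3795 and 4427 under TGF-β+2APB. It fell by 0.77 on the log2 scale with TGF-β (FDR = 0.0172, lost without either DMSO library, up to 0.097), and reads of its near copy Gstp2 may be shared with it. Gsto1 (chr19:47854970-47864790), the omega class enzyme that reduces rather than conjugates many of its substrates, held 40234 and 37664 under DMSO, 39438 and 34809 under TGF-β, and 37959 and 38073 under TGF-β+2APB. Its log2 fold changes were -0.069, 0.034 and -0.035, each less than its SE of 0.084. Gsto2 and Gstz1, at 135 to 2758 normalized counts, passed in no comparison either.

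The summed RNA of the class changed in size and in make-up. Cytosolic members summed to per-kb levels of 1262 and 1181 under DMSO, 389 and 321 under TGF-β, and 330.1 and 342 under TGF-β+2APB. With DMSO, Gsta4 held 58.6% and 58.8% of that sum and Gsto1 20.6% in both libraries. With TGF-β the shares were 13.9% and 11.8% for Gsta4 and 65.6% and 70.1% for Gsto1, and with TGF-β+2APB they were 9.38% and 9.95% for Gsta4 and 74.4% and 72.1% for Gsto1. Gsto1 thus took a larger share while its own level passed no test.

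**Figure D3:**
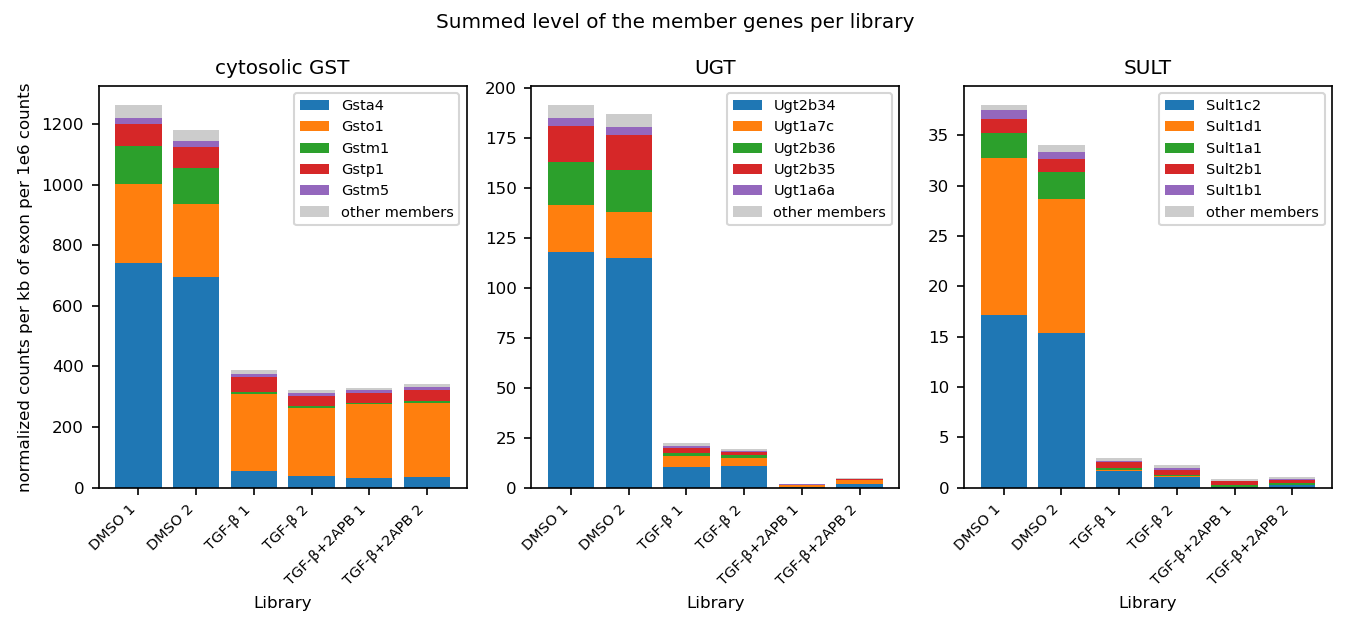
Summed per-kb level (normalized counts per kb of exon in each 1e6 counts) of the cytosolic GST, UGT and SULT members in each library, stacked by gene with the 5 highest named and the rest in grey, each panel with its own axis from 0. The tall DMSO bars are mostly Gsta4, Ugt2b34, and Sult1c2 with Sult1d1, and Gsto1 makes up most of the GST bars in the other 4 libraries.

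All 3 microsomal transferases, membrane enzymes that handle lipid hydroperoxides and leukotrienes, fell with TGF-β. Mgst1, the most abundant of them per kb, held 12269 and 11526 under DMSO, 3728 and 3044 under TGF-β, and 2233 and 2652 under TGF-β+2APB and fell 3.51-fold with TGF-β (-1.81 ± 0.14, FDR = 0.000374). Mgst2 held 2646 and 2426 under DMSO, 1184 and 1197 under TGF-β, and 685 and 762 under TGF-β+2APB, falls of 2.13-fold with TGF-β (FDR = 0.000591) and 1.65-fold with 2APB (FDR = 0.00867). Mgst3 held 3695 and 3454 under DMSO, 1459 and 1160.0 under TGF-β, and 651 and 827 under TGF-β+2APB, falls of 2.73-fold (FDR = 0.00138) and 1.77-fold (FDR = 0.0231). With 2APB all 3 lay below both TGF-β libraries, but for Mgst1 this did not pass (FDR = 0.0653). In the second comparison, the call of Mgst2 was lost without TGF-β+2APB replicate 1 (FDR = 0.0527) and that of Mgst3 without that library or either DMSO library (FDR up to 0.105). Summed per-kb levels were 129 ± 5.99 (SD, n = 2) with DMSO, 41.8 ± 5.63 with TGF-β and 27.2 ± 3.59 with TGF-β+2APB.

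The UDP-glucuronosyltransferases fell at both steps and rose at neither. Of 12 members, 10 fell with TGF-β, 8 fell when 2APB was added, and all 12 were lower with TGF-β+2APB than with DMSO. Among them, Ugt1a1, Ugt1a9, Ugt1a10, Ugt2a3, Ugt2b36, Ugt2b38 and Ugt2b5 reached the minimum mean raw count in some groups only. These genes had to differ between groups to be included. Ugt1a6a, Ugt1a6b, Ugt1a7c, Ugt2b34 and Ugt2b35 reached it in every group, and each fell in both comparisons with DMSO. Summed per-kb levels were 191 and 187 under DMSO, 22.1 and 19.1 under TGF-β, and 1.93 and 4.77 under TGF-β+2APB. The median log2 fold changes of the family were -2.81 at the first step and -3.57 at the second. The latter was -2.12 once Ugt2a3 and Ugt2b5, which had no counts with 2APB, were set to their bounds. For that value Ugt2b38, which averaged at most 3 counts per library in both groups, was left out. The hepatocyte marker sum without Apob, given above, fell in the same libraries. With Apob, that sum was lower with TGF-β than with DMSO but highest with TGF-β+2APB.

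Ugt2 genes, with Sult1b1 and Sult1d1, form a run of 8 members on chr5:86889767-87569027 with no other tested gene inside it. Ugt2b34 (chr5:86889767-86906937) held 38779 and 37868 under DMSO, 3360.2 and 3579.7 under TGF-β, and 145 and 651 under TGF-β+2APB. It carried 61.5% of the family's per-kb sum in both DMSO libraries, fell 11-fold with TGF-β (-3.47 ± 0.61, FDR = 0.00687) and 8.72-fold more with 2APB (-3.12 ± 0.62, FDR = 0.0242). Ugt2b35 held 4605 and 4415 under DMSO, 563 and 367 under TGF-β, and 3.96 and 39.5 under TGF-β+2APB, a fall of 21.3-fold at the second step (FDR = 0.0111). Ugt2b36 held 3418 and 3332 under DMSO, 257 and 251 under TGF-β, and 1.98 and 19.7 under TGF-β+2APB, a fall of 23.1-fold (FDR = 0.00681). In these 3 genes TGF-β+2APB replicate 2 was above replicate 1, as was its leukocyte marker sum, whose part was not tested, and both libraries stayed below both TGF-β libraries. The size of these second falls depended on which of them was kept: without replicate 1 and without replicate 2 the log2 fold change was -2.44 and -4.59 for Ugt2b34, -3.59 and -6.84 for Ugt2b35 and -3.71 and -6.92 for Ugt2b36. The call of Ugt2b34 between TGF-β+2APB and TGF-β was lost without either DMSO library (FDR up to 0.0716).

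Ugt2b5 held 236 and 242 with DMSO, 21.4 and 16.6 with TGF-β and 0 in both libraries with 2APB, where it was at least 6.41-fold lower than with TGF-β (FDR = 0.00631) and at least 80.5-fold lower than with DMSO. Ugt2a3 went from 104 and 132 to 19.5 and 6.23 and then to 0 in both, at least 4.34-fold lower with 2APB than without (FDR = 0.0306, lost without any 1 of the DMSO or TGF-β+2APB libraries, up to 0.113). Its fall with TGF-β was 9.07-fold (FDR = 0.0142, lost without either DMSO library, up to 0.0805). As a log2 fold change that fall was -3.18, and it was -2.59 and -4.21 without replicate 2 and without replicate 1 of TGF-β. Ugt2b38, with 70.8 and 51.7 with DMSO, 3.9 and 0 with TGF-β and 0 with 2APB, was at least 20.6-fold lower with TGF-β+2APB than with DMSO. Outside the run, within 1 Mb, 1 of 8 other tested genes fell with TGF-β and 1 rose, beside 19.7% and 21.8% of all tested genes. With TGF-β+2APB against DMSO none of the 8 fell and 4 rose in edgeR's test, beside 27.2% and 25.6% of all tested genes. These genes share sequence, so reads may be split among them and the 6 Ugt2 members are not independent measurements.

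Ugt1a genes use their own first exon and share the last ones on chr1:88055388-88220002, so a read in the shared exons belongs to any of the 6 and their values are uncertain. Ugt1a7c held 7553 and 7379.8 under DMSO, 1823 and 1276 under TGF-β, and 313 and 586 under TGF-β+2APB. It fell 4.82-fold with TGF-β (-2.27 ± 0.31, FDR = 0.00288) and 3.45-fold with 2APB (-1.79 ± 0.32, FDR = 0.0181), the second call lost without either DMSO library (FDR up to 0.058). Its share of the family's per-kb sum was 12.2% under DMSO, 25.6% and 20.7% under TGF-β, and 50.2% and 38.1% under TGF-β+2APB, while the Ugt2 shares shrank. Ugt1a6a held 1340.5 and 1337 under DMSO, 306 and 187 under TGF-β, and 75.2 and 112 under TGF-β+2APB, falls of 5.43-fold (FDR = 0.00174) and 2.62-fold (FDR = 0.0301, lost without either DMSO library or TGF-β+2APB replicate 1, up to 0.121).

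The other Ugt1a genes were lower in count. Ugt1a6b held 379 and 409 under DMSO, 107 and 54 under TGF-β, and 25.7 and 41.4 under TGF-β+2APB and fell with TGF-β (FDR = 0.00684). Ugt1a10 held 92.4 and 95 under DMSO, 33.1 and 18.7 under TGF-β, and 13.9 and 7.89 under TGF-β+2APB and fell likewise (FDR = 0.0179, lost without either DMSO library, up to 0.0924). Both lay lower still with 2APB, without passing against TGF-β. Ugt1a9 held 122 and 97.1 under DMSO, 46.8 and 18.7 under TGF-β, and 5.94 and 13.8 under TGF-β+2APB and fell with TGF-β+2APB against DMSO (-3.45 ± 0.62, FDR = 0.00556). Its log2 fold change was -2.98 and -4.15 without replicate 1 and without replicate 2 of TGF-β+2APB. Ugt1a1, the bilirubin-conjugating enzyme, held 43.2 and 59.9 under DMSO, 25.3 and 10.4 under TGF-β, and 1.98 and 0 under TGF-β+2APB. The 2 raw counts left with 2APB put it 18.3-fold below TGF-β with a 95% interval of 2.89 to 763 for counting error only, on halved counts, and this call (FDR = 0.0437) was lost without TGF-β replicate 1 or either TGF-β+2APB library (FDR up to 0.139).

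All 6 sulfotransferases fell with TGF-β, and 2 fell further with 2APB. Among them, Sult1a1, Sult1b1 and Sult1d1 reached the minimum mean raw count in some groups only and had to differ between groups to be included. Sult1c2, Sult2b1 and Sult6b1 reached it in every group. Sult1d1 (chr5:87554645-87569027), which sulfates catecholamines and phenols, held 2936 and 2494 under DMSO, 21.4 and 22.8 under TGF-β, and 1.98 and 1.97 under TGF-β+2APB. It fell 122-fold with TGF-β (-6.93 ± 0.15, FDR = 2.14e-05), and the 4 raw counts left with 2APB were 11.2-fold lower than with TGF-β, with a like interval of 2.75 to 98.1 (FDR = 0.00372). Sult1c2 held 2414 and 2173 under DMSO, 228 and 151 under TGF-β, and 9.9 and 37.5 under TGF-β+2APB. It fell 12.1-fold (-3.59 ± 0.43, FDR = 0.00181) and then 7.97-fold (-3.00 ± 0.50, FDR = 0.0163), the second call lost without either DMSO library (FDR up to 0.0583). The second log2 fold change was -2.37 and -4.25 without replicate 1 and without replicate 2 of TGF-β+2APB. These 2 genes made up 86.2% and 84.3% of the family's per-kb sum under DMSO, 59.8% and 54.1% under TGF-β, and 9.85% and 27.1% under TGF-β+2APB.

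Sult1a1, the phenol sulfotransferase, held 283 and 312 under DMSO, 23.4 and 12.5 under TGF-β, and 17.8 and 15.8 under TGF-β+2APB. It fell 16.5-fold with TGF-β (FDR = 0.000725) and overlapped between TGF-β and TGF-β+2APB (-0.10 ± 0.37). Sult1b1 held 189 and 159 under DMSO, 23.4 and 39.4 under TGF-β, and 7.92 and 15.8 under TGF-β+2APB, a fall with TGF-β (FDR = 0.00695) that was lost without DMSO replicate 1 (FDR = 0.0507). Sult2b1, which sulfates cholesterol, held 419 and 372 under DMSO, 181 and 133 under TGF-β, and 121 and 116 under TGF-β+2APB, a fall of 2.52-fold with TGF-β (FDR = 0.00517, lost without DMSO replicate 1, 0.0518). Sult6b1 held 84.5 and 107 under DMSO, 40.9 and 45.7 under TGF-β, and 23.8 and 23.7 under TGF-β+2APB and fell 2.21-fold (FDR = 0.0241, lost without either DMSO library or TGF-β replicate 1, up to 0.165). None of these 4 passed at the second step. The family's sum went from 36 ± 2.8 (SD, n = 2) per-kb with DMSO to 2.55 ± 0.484 with TGF-β and 0.919 ± 0.141 with TGF-β+2APB.

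Glutathione peroxidases, which use glutathione to remove peroxides, did not follow the transferases. Gpx8 (chr13:113042753-113046410), an enzyme of the endoplasmic reticulum, held 15.7 and 20.7 under DMSO, 216 and 259 under TGF-β, and 214 and 243 under TGF-β+2APB. It rose 13-fold with TGF-β (3.70 ± 0.27, FDR = 0.000321), with no overlap between DMSO and the other groups, and it overlapped between TGF-β and TGF-β+2APB (-0.059 ± 0.23, FDR = 0.881). Gpx1, the abundant cytosolic peroxidase, held 9621 and 8849 under DMSO, 16497 and 13725 under TGF-β, and 13878 and 14482 under TGF-β+2APB, a rise of 1.64-fold with TGF-β (FDR = 0.00427). Gpx3, the secreted form, held 114 and 118 under DMSO, 175 and 187 under TGF-β, and 204 and 341 under TGF-β+2APB and rose with TGF-β+2APB against DMSO (1.23 ± 0.29, FDR = 0.0142), a call lost without either DMSO library (FDR up to 0.0852). Gpx4, which reduces peroxides of membrane lipids, held 37673 and 34376 under DMSO, 29248 and 22920.3 under TGF-β, and 26718 and 27454 under TGF-β+2APB. Its fall with TGF-β (-0.47 ± 0.13, FDR = 0.0315) was lost without any 1 of the DMSO or TGF-β+2APB libraries (FDR up to 0.18), and so was its fall against DMSO with 2APB (FDR = 0.0379, up to 0.195). For Gpx1 the rise with TGF-β+2APB over DMSO was lost without DMSO replicate 2 (FDR = 0.0514). None of the 4 passed edgeR's test between TGF-β+2APB and TGF-β, with 0 at an unadjusted p under 0.05 and 0 called by DESeq2. The family's per-kb sum was 358 ± 22.6 (SD, n = 2), 339 ± 51.3 and 339 ± 8.78 in the 3 groups, with Gpx4 at 76.4% and 76.2% of it with DMSO and 57.4% to 60.9% in the other libraries, and Gpx1 at 23.3% and 23.5% and then 37.9% to 41.1%.

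**Figure D4:**
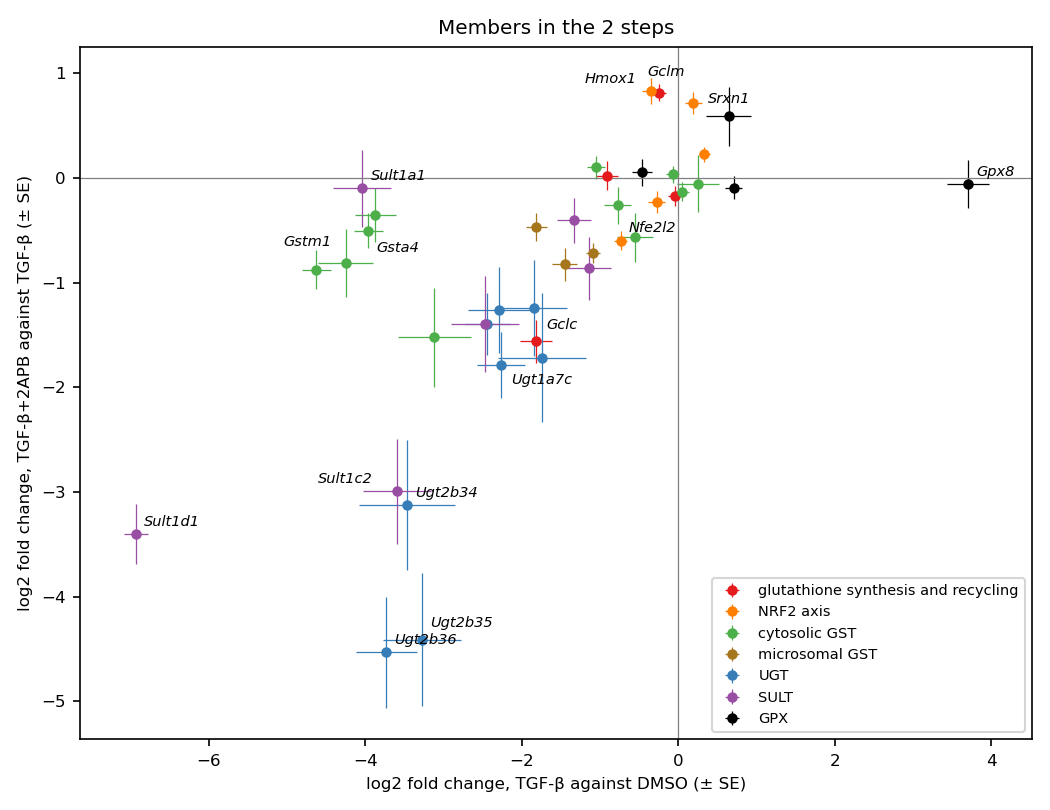
Fitted log2 fold change of TGF-β against DMSO (x axis) and of TGF-β+2APB against TGF-β (y axis) for 41 members with SE bars, coloured by family; 5 members with 3 raw counts or fewer in a group are left out. Ugt2 genes, Sult1c2 and Sult1d1 sit low on both axes, Gsta4, Gstm1 and Sult1a1 low on x and between -1 and 0 on y, and Gclm, Hmox1 and Srxn1 above 0 on y. Both axes use the TGF-β libraries, so points are not independent between them.

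By the direction of their calls, the 46 members fell into 8 patterns. The most common, with 17 members, was a fall with TGF-β, no call when 2APB was added and a fall against DMSO at the end, and it held Gss, Gsta4, the mu class genes Gstm1, Gstm2, Gstm5 and Gstm7, and Sult1a1. A fall at both steps was found for 14 members, among them Gclc, Nfe2l2, 7 Ugt genes, Sult1c2 and Sult1d1. No member that fell with TGF-β rose when 2APB was added, and no member that rose with TGF-β fell. Gclm, Hmox1 and Srxn1 rose at the second step only, Txnrd1, Gpx1 and Gpx8 at the first step only, and Gsr, Gsto1, Gsto2 and Gstz1 passed no test. An absent call at the second step does not show that 2APB left a gene as it was.

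Genes that supply, recycle or depend on glutathione and the conjugating cofactors were read from 7 lists of 118 genes, of which 107 could be tested. With TGF-β 55 fell and 12 rose, when 2APB was added 15 fell and 8 rose, and with TGF-β+2APB against DMSO 57 fell and 18 rose, beside the shares of all tested genes given above. Their median log2 fold changes were -0.45, -0.099 and -0.45. The count of 23 between TGF-β+2APB and TGF-β was 8 without DMSO replicate 1, 7 without DMSO replicate 2, 9 without TGF-β+2APB replicate 1, 12 without TGF-β+2APB replicate 2, 39 without TGF-β replicate 1 and 54 without TGF-β replicate 2. With TGF-β against DMSO, the count of 67 was 42 without DMSO replicate 1 and 44 without DMSO replicate 2.

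Turnover and precursor supply of glutathione had 7 falls and 1 rise with TGF-β among 18 tested genes. At the second step, 5.56% of the list fell and 5.56% rose, beside 10.9% and 6.58% of all tested genes. Hpgds, a sigma class transferase that makes prostaglandin D, fell furthest, from 3571 and 3506 with DMSO to 142 and 212 (-4.32 ± 0.21, FDR = 0.000107). When 2APB was added, 1 of the 18 rose and 1 fell: Oplah, the 5-oxoprolinase that returns glutamate, went from 125 and 99.6 to 224 and 219 (FDR = 0.0321), and Ggt7 from 29.2 and 22.8 to 3.96 and 3.95 (FDR = 0.0149). Chac1, which degrades glutathione, had the largest rise of the list with TGF-β+2APB over DMSO (1.31 ± 0.23, FDR = 0.00533). Slc7a11, the cystine importer, was chosen after its values were seen, and fell with TGF-β from 366 and 411 to 101 and 95.5 (FDR = 0.0277), with 97 and 302 in the libraries with 2APB.

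Among 24 genes of glutaredoxins, thioredoxins, peroxiredoxins and related enzymes, 11 fell and 4 rose with TGF-β, and 3 fell and 1 rose when 2APB was added. The latter were 12.5% and 4.17% of the list, beside 10.9% and 6.58% of all tested genes. Sod3, the extracellular superoxide dismutase, fell from 226 and 227 with DMSO to 13.6 and 6.23 with TGF-β (-4.49 ± 0.47, FDR = 0.00112). Glrx, which removes glutathione from protein thiols, fell at both steps (-1.03 ± 0.17 and -0.92 ± 0.17, FDR = 0.00593 and 0.0213). Txnrd3, a thioredoxin glutathione reductase, rose at both (0.71 ± 0.093 and 0.53 ± 0.092, FDR = 0.00244 and 0.0176).

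Of 9 genes that supply NADPH, the reductant of glutathione reductase, 5 fell and 1 rose with TGF-β. Adding 2APB lowered 3, or 33.3%, beside 10.9% of all tested genes. Idh1, the cytosolic isocitrate dehydrogenase, fell furthest at both steps, with 32362 and 30649 under DMSO, 8906 and 7639 under TGF-β, and 3718 and 4406 under TGF-β+2APB (-1.93 ± 0.12 and -1.03 ± 0.12, FDR = 0.000213 and 0.00675). Pgls, of the pentose phosphate pathway, was the 1 rise (0.42 ± 0.12, FDR = 0.0336).

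Other genes regulated by NRF2 and its partners numbered 22 tested, of which 13 fell and 1 rose with TGF-β and 3 fell and 3 rose when 2APB was added. Aldh3a1, an aldehyde dehydrogenase, fell furthest at both steps, with 151 and 140.5 under DMSO, 33.1 and 14.5 under TGF-β, and 1.98 and 1.97 under TGF-β+2APB (FDR = 0.00597 and 0.0156). Ftl1, the ferritin light chain, had the largest rise with 2APB over TGF-β, with 192498 and 178696 under DMSO, 206179 and 175068 under TGF-β, and 349036 and 362359 under TGF-β+2APB (0.90 ± 0.10, FDR = 0.00555). Abcc1, the exporter of glutathione conjugates, was the 1 gene of the list that rose with TGF-β (1.14 ± 0.079, FDR = 0.000281). The shares of the list that fell and rose when 2APB was added were 13.6% each, beside 10.9% and 6.58% of all tested genes.

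Cofactor supply and reversal of glucuronidation and sulfation had 9 falls and 3 rises with TGF-β among 17 tested genes, and 3 falls and 2 rises when 2APB was added. The latter were 17.6% and 11.8% of the list, beside 10.9% and 6.58% of all tested genes. Slc26a2, a sulfate importer, fell from 23128 and 22255 with DMSO to 3993 and 4273 with TGF-β (-2.46 ± 0.10, FDR = 6.43e-05). Papss2, which makes PAPS for the sulfotransferases, had the largest rise with 2APB, with 1366 and 1122 under DMSO, 892 and 857 under TGF-β, and 1966 and 1705 under TGF-β+2APB (1.07 ± 0.13, FDR = 0.00735). The other rise, chosen after its values were seen, was Ugdh, which makes UDP-glucuronic acid, with 48226 and 47704 under DMSO, 27201 and 26199 under TGF-β, and 39388 and 37163 under TGF-β+2APB (0.52 ± 0.066, FDR = 0.00796). Papss2 and Ugdh were thus higher with 2APB than with TGF-β, in the same libraries in which the UGT and SULT sums were lowest. The list as a whole had a median log2 fold change of -0.033 at that step. Tpst1, a protein tyrosine sulfotransferase, rose with TGF-β (1.26 ± 0.12, FDR = 0.000838) and fell when 2APB was added (-0.87 ± 0.12, FDR = 0.0098).

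Of 7 other phase II transferases tested, 4 fell and none rose with TGF-β. When 2APB was added 1 fell, or 14.3%, beside 10.9% of all tested genes. Inmt, an amine methyltransferase, went from 80.6 and 82.6 with DMSO to 0 in both TGF-β libraries, at least 27-fold lower. Glyat, which conjugates acyl groups to glycine, held 637 and 707 under DMSO, 164 and 162 under TGF-β, and 23.8 and 47.4 under TGF-β+2APB and fell at both steps (-2.04 ± 0.30 and -2.19 ± 0.32, FDR = 0.00368 and 0.0116).

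Xenobiotic-sensing transcription factors and targets of the aryl hydrocarbon receptor had 6 falls and 2 rises with TGF-β among 10 tested genes. Adding 2APB gave 1 fall and 1 rise, 10% each, beside 10.9% and 6.58% of all tested genes. Nr1i2, the pregnane X receptor, fell from 183 and 209 with DMSO to 7.79 and 6.23 with TGF-β (-4.78 ± 0.32, FDR = 0.000266). Nr1h4, the bile acid receptor FXR, held 2526 and 2669 under DMSO, 1451 and 1314 under TGF-β, and 238 and 399 under TGF-β+2APB and fell at both steps (-0.91 ± 0.23 and -2.12 ± 0.24, FDR = 0.0233 and 0.00635). Cyp1b1, a phase I enzyme and target of the aryl hydrocarbon receptor, rose at both steps, with 175 and 213 under DMSO, 808 and 807 under TGF-β, and 1334 and 1103 under TGF-β+2APB (2.06 ± 0.15 and 0.59 ± 0.14, FDR = 0.000361 and 0.044). Hnf4a, a factor known from liver and chosen after its values were seen, held 42565 and 41967 under DMSO, 19117 and 14068 under TGF-β, and 8487 and 11429.5 under TGF-β+2APB and fell with TGF-β (-1.35 ± 0.20, FDR = 0.00352).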

How the data were processed

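Messenger RNA of 6 NMuMG libraries (DMSO, TGF-β and TGF-β+2APB, 2 replicates each) was selected with oligo-dT and sequenced as single-end reads. The authors used FastQC 0.11.2 for quality control, TopHat2 2.0.13 for alignment and featureCounts for assignment to genes, and they deposited whole-number read counts without normalization. The submitters' processing notes name the build mm10, while the paper's methods name the human hg19, and all symbols used here are mouse symbols. The annotation, the strand setting and the treatment of reads with several alignments are not given in the sources used here. The study gives the order and length of the treatments in more than 1 way, so no time is stated. The labels do not state doses, which come from the study's methods.

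edgeR 4.0.16 (R 4.3.3) was used on these counts. TMM factors scaled the libraries, the 13353 genes whose normalized counts averaged 20 or more were kept, and 1 quasi-likelihood model without covariates was fitted to the 3 groups. An FDR of 0.05 or less was called. SE was computed as the absolute log2 fold change over the root of the F statistic. Positions and exon lengths came from GENCODE M21 by symbol (94.8% of rows, all 46 members). Where a group had no counts, the fold was set against 3 counts per library. Such bounds and the intervals describe counting error alone, as reads do not stand for separate molecules. Total counts were 71840570 to 79473182.

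The members, companion lists and markers were chosen with earlier results of these data known. Members were named by role, with values for the 10 genes named one by one and for those called, and companion genes by the largest rise and fall in each list and comparison. 1 gene of the companion lists is not reported here. The procedure was tested on simulated counts for TGF-β against DMSO: 174 of 200 genes changed 4-fold were recovered and 8 of 13037 unchanged genes were called. The simulation gave all groups the same spread and changed far fewer genes than were called in the data. Both groups with TGF-β had the same means in it, so it does not cover the comparison between them. The alternatives were DESeq2 1.42.0, RLE or library size scaling, no filter, 10 counts in every library, halved counts, a replicate block, fits of the 4 libraries of a comparison alone, stricter thresholds (FDR 0.01, or an absolute log2 fold change of 1), and each library left out in turn.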

Additional observations from a re-analysis of the deposited data

How the results depend on the processing

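With edgeR, 34, 18 and 42 members were called in the comparisons of TGF-β with DMSO, TGF-β+2APB with TGF-β and TGF-β+2APB with DMSO, and the first and last counts stayed within 1.5 times under each alternative. In the second comparison the members called were 6 at an FDR of 0.01, 11 where the absolute log2 fold change had to reach 1, 5 from only the 4 libraries compared (14 of the 18 tested there), 12 of 12 still tested with 10 counts in every library, and 9 to 31 with 1 library left out. DESeq2 called 23, including all 18. Of the companion genes, 67, 23 and 75 were called. In the middle comparison these were 38 by DESeq2, 6 at an FDR of 0.01, 7 where it had to reach 1, 6 from only the 4 libraries, 15 with the replicate block, and 7 to 54 with 1 library left out. The threshold of 1 on the log2 fold change left 28 companion genes for TGF-β against DMSO and 37 for TGF-β+2APB against DMSO, and the former count was 42 to 74 with 1 library left out. Other than where fewer genes, fewer libraries or a stricter threshold were used, the cause was not tested. Replicate numbers did not pair the samples (correlations of deviations of 0.148, -0.458 and -0.255 over the pairs of groups), and the replicate block gave 33, 13 and 42 members. Crossing the numbers of the TGF-β+2APB libraries in the block, chosen after seeing the data, gave 37, 21 and 42. Other scalings shifted the median of all genes by at most -0.064 on the log2 scale. The signs that changed belonged to small differences that were not called. With library size scaling Gss became -0.0085 between TGF-β+2APB and TGF-β. With 1 library left out, log2 fold changes of TGF-β against DMSO ran from -0.062 to 0.15 for Gstz1, -0.16 to 0.018 for Gsto1, -0.098 to 0.54 for Gsto2 and -0.15 to 0.067 for Gsr. Those of TGF-β+2APB against TGF-β ran from -0.11 to 0.24 for Gpx4, -0.18 to 0.078 for Gpx8, -0.49 to 0.0089 for Gstp1, -0.053 to 0.13 for Gsto1, -0.34 to 0.30 for Gsto2, -0.16 to 0.24 for Gss, -0.012 to 0.23 for Gstm5, -0.64 to 0.0087 for Gstm7, -0.47 to 0.43 for Sult1a1 and -0.22 to 0.048 for Gpx1. Gsto1 ran from -0.082 to 0.013 for TGF-β+2APB against DMSO. At these depths the members at or near 0 counts with 2APB (Ugt2a3, Ugt2b5, Ugt2b38 and Ugt1a1) limit a fold to a bound or a wide interval.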

Other observations

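The 18 genes of these families below the minimum of 20 were not tested. Gsta2 had raw counts of 26 and 28 under DMSO, 2 and 0 under TGF-β, and 0 and 4 under TGF-β+2APB. Gstm3 had 18 and 26, 2 and 0, and 0 and 0 in the same order, and Gstm6 had 18 and 26, 0 and 0, and 0 and 2. Ugt2b1 went from 42 and 18 to 2 and 2 and to 2 and 0. In Gstt2 the order was the other way, with 2 and 0, 0 and 2, and 10 and 8. These values carry no test, and the mu class pair Gstm3 and Gstm6 are close copies of each other that may share reads.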
